A study of Drosophila melanogaster with 2 samples.

Results

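The cytosolic chaperonin CCT, also called TRiC, is a double-ring ATPase that encloses newly made proteins, actin and tubulin among them, and folds them in its cavity. Each ring holds 8 different subunits, and each of them is encoded by a gene of its own. The 8 Drosophila melanogaster genes CCT1 to CCT8 were described here, of 13945 protein-coding genes on the main chromosome arms. The genes were selected by name, with earlier results of these data in view, on the presence, signal, rank and summit position of peaks within 500 bp of their starts. Those values are therefore given as a description, with no test.

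The data were peak lists from chromatin immunoprecipitation followed by sequencing (ChIP-seq) of Bigmax, the fly counterpart of mammalian Mlx, a transcription factor of the bHLH-zipper family. Whole embryos of both sexes pooled, 0 to 24 h old, came from a transgenic line that stably expresses Bigmax with GFP at its C terminus. Both libraries, biological replicates 3 and 4, belonged to this 1 group, so no comparison between conditions was possible, and the control alignment and other lines were not analysed here. The promoter that drives the transgene is not given in the sources used here. Their antibody label names Bigmax, whereas their free text calls them input controls, and they were read as the immunoprecipitation peak calls that the deposited files are. Mixed ages and all cell types of the embryo contribute to each value.

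The authors deposited 3 lists of 30000 relaxed peaks, 1 per replicate and 1 from pooled reads, and a list of 1949 peaks that passed a threshold on the irreproducible discovery rate (IDR), a measure of how well ranks agree between replicates. These 1949 peaks, called reproducible below, were the 1949 strongest lines of the pooled list. The signal is the authors' value per peak, in units that are not comparable between lists, and rank 1 is the strongest peak of a list. Read depth is unknown, as the lists hold no read counts.

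Of the 8 CCT genes, 7 had a reproducible summit within 500 bp of a start, against 11.2% of all protein-coding genes. All 7 lay among the 320 strongest peaks, and CCT4 was the exception. A share of 2.00% of protein-coding genes had a promoter summit as strong as that of CCT1, the weakest of the 7. In the relaxed lists all 8 genes had a promoter summit in the pooled list, as did 56.7% of genes, and all 8 had one in both replicate lists, as did 45.4%. The median rank of the 8 genes was 86.5 in the pooled list, 91.5 in replicate 3 and 86.5 in replicate 4. Over all genes with a promoter summit, the medians were 5985, 6146 and 5962. The count of 7 falls to 4 when the window is narrowed to 250 bp, which leaves CCT3, CCT5, CCT7 and CCT8, while the share of all genes falls to 9.58%.

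**Figure D1:**
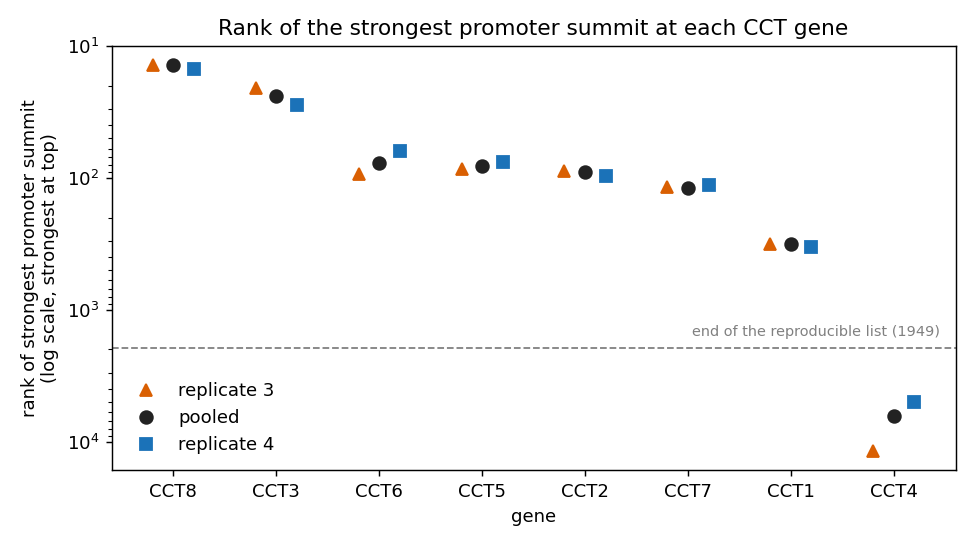
Rank of the strongest summit within 500 bp of a start (y axis, log scale, strongest at the top) for each CCT gene (x axis) in the pooled list and in each replicate list. The dashed line marks rank 1949, the end of the reproducible list; 7 genes lie between ranks 14 and 337 in all 3 lists, and CCT4 lies between 4974 and 11773.

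In yeast, CCT3, CCT6, CCT7 and CCT8 form the side of the ring that binds ATP weakly. They are described first, and this grouping was chosen after the values were seen. CCT8 (FBgn0284436), the theta subunit, had the strongest peak, with a pooled signal of 1914 at rank 14 (chr2R:8906664-8907282). Its signal was 1119.9 in replicate 3, at rank 14, and 805 in replicate 4, at rank 15. CCT3 (FBgn0015019), the gamma subunit, followed with 1693 at rank 24 (chr3R:16647408-16648255), and ranked 21 in replicate 3 with 1036 and 28 in replicate 4 with 683. These genes held the leading ranks among CCT genes in each replicate.

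CCT6 (FBgn0027329), the zeta subunit, had a pooled signal of 1049 at rank 77 (chrX:15746552-15747260). It ranked 94 in replicate 3 with 544 and 63 in replicate 4 with 517, the widest gap in rank among the 7 genes as a ratio, at 1.49. CCT7 (FBgn0037632), the eta subunit, had 765 at rank 120 (chr3R:8801341-8801970). It was nearly level in the replicates, at rank 117 with 463 and at rank 114 with 333.

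The other side of the ring binds ATP more tightly in yeast. Of its members, CCT5 and CCT2 had pooled ranks between those of CCT6 and CCT7, and CCT1 and CCT4 ranked lower. A contrast between the sides was not tested. CCT5 (FBgn0010621), the epsilon subunit, had a pooled signal of 1020.1 at rank 82 (chr2R:12174717-12175558), with ranks of 85 in replicate 3 and 76 in replicate 4 and signals of 579.9 and 453. CCT2 (FBgn0030086), the beta subunit, had 929.5 at rank 91 (chrX:9089318-9090272), with ranks of 89 and 97 and signals of 562 and 381. CCT1 (FBgn0003676), the alpha subunit, had 347 at rank 320 (chr3R:22490998-22491351), with ranks of 316 and 337 and signals of 202 and 152. CCT6 changed place between the replicates, standing below CCT5 and CCT2 in replicate 3 and above both in replicate 4, so it is not separated from them beyond the spread of the replicates. The other genes kept their order in both, CCT5 ahead of CCT2 included.

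CCT4 (FBgn0032444), the delta subunit, stood below the IDR threshold. Its strongest promoter peak (chr2L:12692793-12693192) had a pooled signal of 59.1 at rank 6385, whereas the weakest reproducible peak had 111. Its rank was 11773 in replicate 3, with a signal of 25.7, and 4974 in replicate 4, with 34.7, a ratio of 2.37. Among the CCT genes, CCT1 was the nearest inside the threshold and CCT4 the one outside it.

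Between the replicates, the higher rank number over the lower had a median of 1.09 for the 7 CCT genes with a reproducible peak. It was 1.42 for the 1548 genes with a reproducible promoter summit and a promoter summit in both replicates. CCT4 is in neither set, and the IDR threshold that both passed itself rests on agreement of ranks. For the 260 other genes among the 1548 with ranks in the span of the 7 CCT peaks it was 1.19. That span runs from rank 14 to 320, and 220 of its 307 peaks ranked 101 to 320. The 7 CCT peaks had a median rank of 82, so sets in this span, here and below, are not matched to them in rank. The summits of the replicates lay a median of 6 bp apart at the 7 genes, 27 bp apart over the 1548 and 17 bp apart over the 260. The gap was 0 bp at CCT3 and 36 bp at CCT1, the largest. No test was run, as the rule that chose the genes used rank and summit position.

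The 7 reproducible CCT summits lay at or downstream of a start of their genes. For 6 of the 7 reproducible peaks the summit was in an intron: 148 bp downstream of the start at CCT7, 199 bp at CCT3, 222 bp at CCT5, 293 bp at CCT1, 342 bp at CCT6 and 433 bp at CCT2. At CCT8 the summit lay in the first exon, 3 bp downstream of the start. The labels give fragments of 200 to 800 bp, so at CCT8 inside and upstream cannot be told apart. The distance at CCT5 is from the nearer of its 2 starts, and the summit lay 516 bp from the other. At CCT3 the position is intronic in 3 of 4 annotated transcripts and in the first exon of the fourth. At CCT1 it is in the first intron of one transcript and in intron 2 of the other, whose first exon is split. The median distance was 222 bp downstream, with 225 bp in replicate 4.

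For comparison, of the 1289 reproducible promoter summits, 57.1% lay upstream of the nearest start, 26.0% in an exon and 16.9% in an intron, with a median position 17 bp upstream. Among the 219 promoter summits with ranks in the span of the CCT genes, 34.2% were upstream, 31.5% exonic and 34.2% intronic, with a median position 55 bp downstream. These shares are a description, since summit position was part of the rule. The median width of the 7 CCT peaks was 709 bp, against 445 bp for all 307 peaks in the same span of ranks and 400 bp for all reproducible peaks. Neither set was matched in rank to the CCT peaks, and whether the width differs at equal rank was not tested. CCT1, at 354 bp, was narrower than both of these medians. The CCT5 peak was 842 bp wide in the pooled list but 457 bp in replicate 3 and 475 bp in replicate 4.

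**Figure D2:**
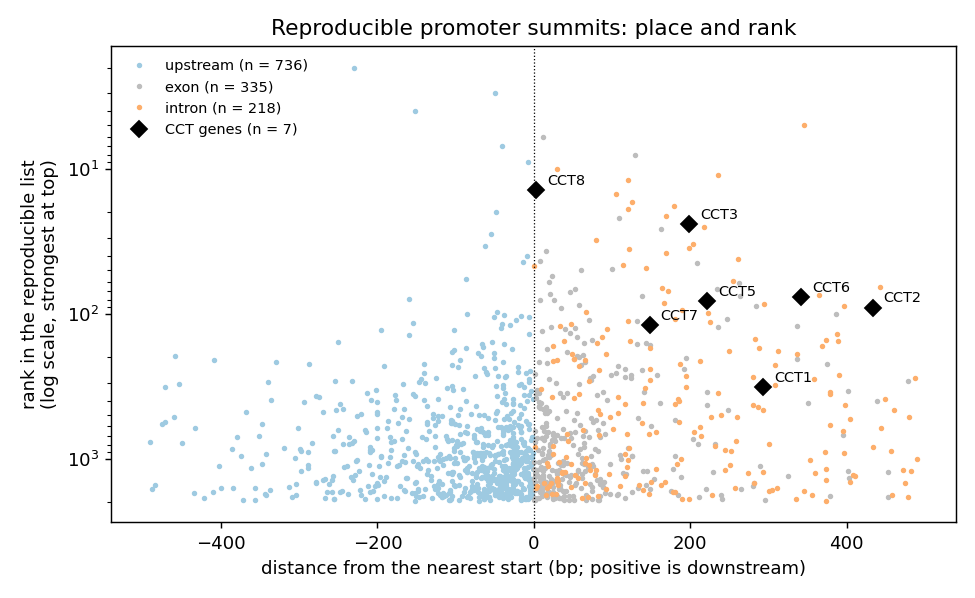
Position of each reproducible promoter summit relative to the nearest protein-coding start (x axis, bp) and its rank (y axis, log scale, strongest at the top), coloured by place. The 7 CCT summits, shown as diamonds, all lie at or downstream of the start, from 3 to 433 bp.

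No reproducible CCT summit lay within 500 bp of a start of another protein-coding gene. For 7 of the 8 genes the nearest other start belonged to a gene on the opposite strand, lying upstream at distances from 59 bp at CCT4 to 601 bp at CCT3. CCT2 had no such neighbour, its nearest being CG6999 on the same strand, 1146 bp upstream. CCT4 shared its peak in all 3 lists with the divergent gene CG6153. The pooled CCT4 summit lay 59 bp upstream of the CCT4 start and exactly at the CG6153 start, so which gene of the pair the peak belongs to cannot be told apart. Of the strongest pooled summits of the 8 genes, only that of CCT4 lay upstream of its gene. The weak pooled summit in the first intron of CCT4 also lay within 500 bp of the CG6153 start.

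Weaker summits accompanied several of the peaks. At CCT2 a further reproducible summit lay in the same interval, 632 bp from the start and thus outside the window, with a signal of 186 at rank 768. CCT1 had a lesser pooled summit 90 bp from its start at rank 2695, within 500 bp of tHMG1, whose start was 480 bp away. Replicate 4 placed that summit at 125 bp and rank 969, replicate 3 at 60 bp and rank 2384. At CCT8, replicate 4 alone had a lesser summit 198 bp upstream, shared with CG30349, at rank 3814. CCT3 had one in replicate 3 alone, 405 bp downstream at rank 6959. CCT4 had a weak intronic summit 430 bp downstream in the pooled list at rank 29610 and in replicate 3, 457 bp downstream, at rank 23669.

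**Figure D3:**
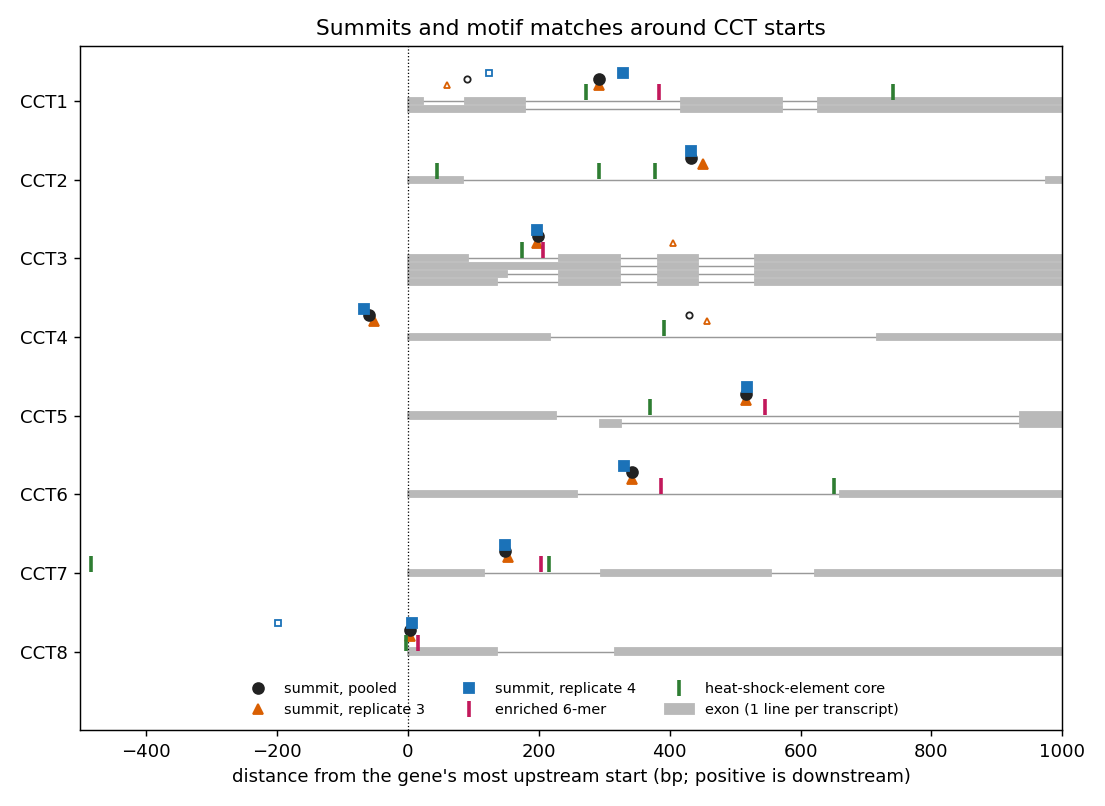
Exons (grey, 1 line per transcript), summits of the pooled and replicate lists and motif matches around each CCT gene, by distance from its most upstream start (x axis, bp). Large filled symbols are the strongest summit of a list and small open ones other summits within 500 bp of a start; ticks mark the enriched 6-mer and the heat-shock-element core named in the text. The filled symbols lie in an intron at 6 genes, in the first exon at CCT8 and upstream at CCT4.

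Sequence at the summits was searched for 8 motifs on both strands, in windows of 101 bp centred on the summit. AGGTTA, whose reverse complement is TAACCT, was included because earlier results of these data had shown it at strong peaks, and it is the enriched 6-mer of the map of summits and motifs. It lay within 50 bp of the summit at 4 of the 7 genes: 7.5 bp from it at CCT3, 13.5 bp at CCT8, 29.5 bp at CCT5 and 45.5 bp at CCT6, measured to the centre of the motif. At CCT7 it was 55.5 bp away and at CCT1 90.5 bp, so that 6 of 7 had it within 100 bp. Each of these genes had 1 copy within 700 bp of the summit, in every case downstream of the summit and of the start. CCT2 and CCT4 had none within 700 bp.

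The same windows held AGGTTA in 19.8% of reproducible peaks (95% Wilson interval 18.0 to 21.6%, counting error only), in 3.43% of the 27650 weak pooled peaks that share no base with a reproducible one (3.22 to 3.65%), and in 1.73% of windows centred on the most upstream start of each protein-coding gene. The motif was more frequent at stronger peaks. Of the 100 strongest reproducible peaks 61 held it, and in the span of ranks of the CCT genes 47.9% did (42.4 to 53.5%). The 4 of 7 at CCT genes is near this last share, which covers all peaks of the span and not promoter peaks alone. The span is not matched in rank to the CCT genes. Among reproducible promoter peaks of any rank, 15.4% held the motif. Within 100 bp the share in that span was 62.2%, beside 6 of 7.

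The stretches below show the motif at CCT6, whose summit is intronic, at CCT7 and CCT1, where it lies further off, and at CCT3, where it is nearest to the summit. All are in the direction of transcription, from the RefSeq Release 6 genome, which is the dm6 build. Capitals mark AGGTTA or TAACCT and the heat-shock-element core GAANNTTC described further on. They are chrX:15746930-15747050 on the plus strand, chr3R:8801678-8801787 on the plus strand, chr3R:22491046-22491176 on the minus strand and chr3R:16647797-16647826 on the plus strand.
CCT6: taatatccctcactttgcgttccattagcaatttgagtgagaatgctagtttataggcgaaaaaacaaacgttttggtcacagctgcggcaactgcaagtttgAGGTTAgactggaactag
CCT7: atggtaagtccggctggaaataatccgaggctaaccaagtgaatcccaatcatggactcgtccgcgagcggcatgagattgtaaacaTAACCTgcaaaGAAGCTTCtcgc
CCT1: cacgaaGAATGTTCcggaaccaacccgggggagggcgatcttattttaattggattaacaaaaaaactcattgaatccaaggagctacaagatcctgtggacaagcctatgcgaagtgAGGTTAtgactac
CCT3: catcggcggttcTAACCTcactcattctct

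In CCT6 and CCT1, and in the reverse complement at CCT3, the 6-mer is preceded by TG. This extended form, TGAGGTTA, was picked after these sequences were seen. It lay within 50 bp of the summit at CCT3, CCT5, CCT6 and CCT8, and within 100 bp at CCT1 as well. It was present in 7.39% of all reproducible peaks and in 3.96% of reproducible promoter peaks (95% Wilson interval 3.02 to 5.16%). It was also present in 23.8% of all peaks in the CCT span of ranks (19.4 to 28.8%), in 0.409% of weak peaks and in 0.115% of windows at gene starts. At CCT7 the 6-mer occurred without it.

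CCT2, which ranked 91 without AGGTTA, and CCT4, the gene below the threshold, are shown for contrast. The CCT2 stretch is chrX:9089886-9090006 on the plus strand and spans 60 bp on either side of its intronic summit, with GAANNTTC in capitals. The CCT4 stretch is chr2L:12692990-12693019 on the minus strand, with GGTCACAC in capitals, the core of a promoter element known as Motif 1 that occurs at many fly housekeeping genes.
CCT2: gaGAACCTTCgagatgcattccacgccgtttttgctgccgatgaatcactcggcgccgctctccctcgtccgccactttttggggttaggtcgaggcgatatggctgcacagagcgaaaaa
CCT4: acgcaaaatacGGTCACACcaatttgccat

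GGTCACAC lay 11.5 bp from the CCT4 summit and within 50 bp of none of the 7 reproducible CCT summits. It was present in 5.28% of reproducible promoter peaks and in 5.59% of windows at gene starts. Within 500 bp of the most upstream start it was present at 3 of the 8 genes, CCT4, CCT5 and CCT6, beside 10.9% of all protein-coding genes. The E-box CACGTG, the form that Mlx dimers are known to bind, was within 100 bp of none of the 7 reproducible CCT summits, beside 6.05% of reproducible promoter peaks. The nearest was 180.5 bp upstream of the CCT2 summit. Within 500 bp of the start, CACGTG was present at 1 of 8 CCT genes and at 12.9% of all protein-coding genes.

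GAANNTTC holds a pair of inverted GAA units, the unit that heat shock factor binds in heat-shock elements. It lay within 50 bp of the summit at CCT8, at 5.5 bp, at CCT1, at 20.5 bp, and at CCT3, at 24.5 bp, in each case upstream of the summit. This was 3 of 7 genes, beside 2.87% of reproducible promoter peaks (95% Wilson interval 2.09 to 3.93%), 2.61% of peaks in the CCT span of ranks (1.33 to 5.06%) and 3.27% of windows at gene starts. Within 100 bp the count was 5 of 7, with CCT2 at 54.5 bp and CCT7 at 67.5 bp, beside 6.51% in the span. Within 500 bp of the most upstream start, 7 of the 8 CCT genes held it, with 3 copies at CCT2, beside 26.6% of all protein-coding genes. CCT6 was the gene without one there. These counts describe letters in the reference sequence, not bound sites.

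Of the other motifs, CGATAG, like AGGTTA, was known from earlier results of these data. It was within 50 bp of the summit at CCT3 and CCT8, beside 13.1% of reproducible promoter peaks. CAGCTG and TATAAA were each there at CCT6 alone, beside 9.54% and 11.7% of those peaks. TATCGATA, the DNA replication-related element, was at none of the 7 summits, beside 5.04% of those peaks, and at 2 of the 8 genes, CCT2 and CCT5, within 500 bp of the most upstream start, beside 12.3% of all genes.

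Among genes that work with the chaperonin, counts by list are given beside the share of 11.2% of all genes. Prefoldin, which hands unfolded actin and tubulin to CCT, had a reproducible promoter summit at 4 of 7 genes, with the unconventional prefoldin uri counted among them. These were mgr, the prefoldin 3 subunit, at rank 266, Pfdn4 at 349, uri at 481 and Pfdn5 at 1667. The mgr summit lay 158 bp from its own start and 330 bp upstream of the start of Irbp. Pfdn1, Pfdn6 and Pfdn2 stood at pooled ranks 6589, 9212 and 4688. Pfdn5 lies near CCT1 on 3R, in convergent orientation with 994 bp between the gene ends.

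Hsp60A, the mitochondrial counterpart of the chaperonin, had a summit 6 bp upstream of its start with a signal of 805 at rank 105, and ranked 111 in both replicates. It was the only reproducible one of 6 genes in that list, and Hsp60B, Hsp60C and Hsp60D had no promoter summit in any list. In the Hsp70 and Hsp90 system 6 of 14 genes had one. The cochaperone p23 stood at rank 74 with 1069, and Hsp83, the fly Hsp90, at rank 172 with 563. Hsp110, also called Hsc70Cb, a nucleotide exchange factor for Hsp70 proteins, stood at rank 471 with 257. Stip1, DnaJ-1 and Hsc70-5 followed at ranks 889, 934 and 1018. The Stip1 and Hsc70-5 summits were shared with U2af38 and CG8531, whose starts were within 500 bp. The p23 summit was intronic, 364 bp downstream of the start.

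Among the chaperonin's main clients, 3 of 16 actin and tubulin genes had a reproducible promoter summit: betaTub97EF at rank 460, alphaTub84B at 720 and betaTub56D at 1375. Act5C stood at pooled rank 3095. None of the 6 other clients examined, the Cdc20 homologue fzy and CycE among them, and none of the 3 phosducin-like genes did so. In all, 14 of 52 genes of these lists were counted, beside 7 of 8 CCT genes and 11.2% of all genes, and no test was run between the lists.

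**Figure D4:**
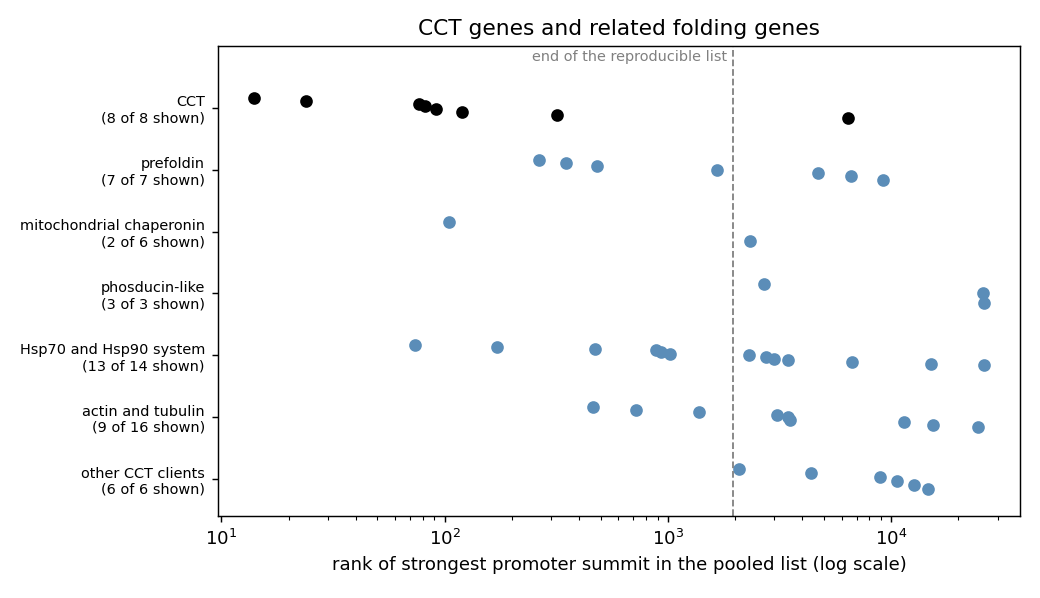
Rank in the pooled list (x axis, log scale) of the strongest promoter summit of each CCT gene (black) and of genes of related folding lists (blue), 1 point per gene with such a summit. The dashed line is the end of the reproducible list; 7 of 8 CCT genes lie to its left, and 14 of 52 genes of the other lists.

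For each of the 7 CCT genes, the genes closest in rank over both replicates were found by the Euclidean distance between log2 ranks, among 6325 other genes with a promoter summit in both. CG1354 was nearest to CCT8, and eIF3b, a translation initiation factor gene, and RpS3, a ribosomal protein gene, were nearest to CCT3. CCT6 had Nmt and Srp68 beside it, and CCT5 had CG33177 and ND-23, a respiratory complex I gene. Phb2 and Tango14 were nearest to CCT2. The pairs nearest to CCT7, CG31220 with CG6195, and to CCT1, Set with Su(var)3-9, each had equal ranks in both replicates and so shared a peak. The distances of the genes named ran from 0.0386 to 0.471 on the log2 scale and rest on 2 libraries.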

How the data were processed

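The peak lists came from 2 ChIP-seq libraries that the labels describe as separate biological replicates of 1 group. The alignments were to dm6, and the deposited notes derive relaxed peaks per replicate and on pooled alignments against a control alignment, from which the IDR list was made. The peak caller is not given in the sources used here. The deposited signal value per peak was used for ranking. The deposited −log10 q-value was 3.64 for all reproducible peaks and was not used.

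Starts were those of protein-coding transcripts on the main chromosome arms in Ensembl release 115, in Release 6 coordinates, with sequence from the RefSeq copy of that assembly; 0 peaks ran past a chromosome end. A summit within 500 bp of any start counted for that gene. Summit assignment, the overlap rule and the motif search were tested on simulated data. Members and gene lists were chosen with earlier results of these data known, and the older symbol Hsc70Cb was matched to Hsp110 through RefSeq synonyms. The text names all CCT genes, genes sharing their summits, listed genes with a reproducible peak and the 2 genes nearest in rank; listed genes named without such a peak were chosen after their values were seen. One gene under this rule is not reported here. No sequence of arm 2R is printed. Python 3.11.15, pandas 2.3.3 and scipy 1.17.1 were used. Alternatives changed the window, the start, the assignment, the threshold, the replicate and the motif window.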

Additional observations from a re-analysis of the deposited data

How the results depend on the processing

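The count of CCT genes with a reproducible promoter peak was 7, and 6 or 7 under 8 of 9 alternatives: a 1000 bp window, the most upstream start, any base of the peak, the nearest gene alone, the stronger 974 peaks, the 1949 strongest lines of each replicate alone (7 to 7) and the 1642 reproducible peaks matched in both replicate lists. Several of these could not lower the count. A 1000 bp window and any base of the peak can only keep or add genes. The 7 genes rank 320 or better in the pooled list and 337 or better in each replicate, so cuts at 974 and 1949 had to keep them. The count was 4 with a 250 bp window, because CCT1, CCT2 and CCT6 have their summits farther out, and 6 with the most upstream start, which drops CCT5. Their median rank in the pooled list was 86.5, from 86.5 to 91.5 in single replicates. With a 250 bp window it was 101 over the genes with any pooled summit in that window. CCT2 and CCT6 had none there, CCT4 at rank 6385 was included, and CCT1 counted through its lesser summit at rank 2695. The median summit position was 222 bp downstream, from 222 to 225 bp in single replicates, an alternative added after the data were seen. The number of CCT summits with AGGTTA was 4 with 50 bp on either side, 2 with 25 bp and 6 with 100 bp. At the summits of single replicates it was 3 to 4. The 8-mer TGAGGTTA gave 4 as well, but it was picked from sequences of these genes, so that count is no independent check. No paired analysis was possible because both samples belong to 1 group. The share of all genes, 11.2%, ran from 5.74% in the stronger 974 peaks to 13.4% with 1000 bp. From replicate 3 alone 1 of the other clients was counted, and from replicate 4 alone 1 phosducin-like gene, where none were in the reproducible list. With 2 libraries and no read counts, limits of detection cannot be given.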

Other observations

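AGGTTA and GAANNTTC were also counted at the 14 reproducible promoter summits of the related folding genes. AGGTTA lay within 50 bp of 2 of them, those of Hsp60A and Hsc70-5, beside 15.4% of reproducible promoter peaks. Of the 14, the summits of mgr, Hsp60A, Hsp83 and p23 had ranks within the span of the CCT peaks and the others ranked lower, and AGGTTA was less frequent at lower ranks among all reproducible peaks. GAANNTTC lay at 3, those of Hsp83, DnaJ-1 and Hsp110, beside 2.87% of reproducible promoter peaks. Hsp83 and DnaJ-1 are known heat-inducible genes. Summits in an intron numbered 3, at uri, p23 and betaTub97EF, beside 16.9% of reproducible promoter summits. The lists are small, and no test was run between them and the CCT genes.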
